A study of Mus musculus with 16 samples.

Results

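The comparison was between cultures of mouse oligodendrocyte precursor cells (OPCs) labelled RXRgKO and WT, both given the thyroid hormone triiodothyronine (T3). It rests on 8 of the 16 libraries of the series, the 4 titled RXRgKO T3 and the 4 titled Wt T3, chosen by title, and it covers all genes with enough counts to be tested. RXRgKO T3 cultures are described in the series as RXRg-/- cells and WT T3 cultures as RXRg+/+ cells, each with T3 for 24 h. The RXRgKO untreated and WT untreated cultures (n = 4 each) carried the same genotype labels without T3. All cells had the C57BL6J/129svEmx mixed background, were derived from neural stem cells by way of oligospheres, and were taken on day 4 of monolayer culture. The labels do not give the dose of T3, which part of the gene was disrupted, or whether each of a group's 4 libraries had its own culture or animal. The p-values therefore describe the spread among these libraries only, and that spread may be technical. They count the 4 libraries of a group as separate, although these fell into sets of nearly alike libraries, described below.

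Retinoid X receptors are nuclear receptors that bind DNA mostly as partners of other receptors, among them the thyroid hormone, retinoic acid, liver X and peroxisome proliferator-activated receptors. Rxrg encodes the gamma form, which oligodendrocyte lineage cells express. T3 drives OPCs out of division and into oligodendrocytes, the cells that wrap axons in myelin, and it acts through the receptors Thra and Thrb, which pair with retinoid X receptors. The comparison asks how cells with the 2 genotype labels differ once this signal has been given.

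Rxrg itself (ENSMUSG00000015843; GRCm38 chromosome 1, 167598384 to 167639623, plus strand) went against the labels. Its level was 5.46, 4.89, 4.27 and 5.05 CPM (counts scaled to a common library size, normalised for library size and composition) in RXRgKO-labelled replicates 1 to 4, against 0.885, 0.960, 0.597 and 0.371 CPM in WT-labelled replicates 1 to 4. No WT-labelled library reached the lowest RXRgKO-labelled one, and the log2 fold change, always given here as RXRgKO-labelled minus WT-labelled, was 2.79 (SE 0.23, edgeR adjusted p = 8.8e-07). These levels rest on 603 counts in the RXRgKO-labelled and 71 counts in the WT-labelled libraries. Counts per gene do not show which part of the transcript the reads cover. All directions below are therefore between the libraries labelled RXRgKO and the libraries labelled WT.

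The promoter windows of Rxrg and, in each direction, of the 2 genes with the lowest p among named genes with a listed window are shown because a retinoid X receptor and its partners read the half-site AGGTCA, alone or as a repeat. Each window runs from 250 bases before to 50 after a gene start of RefSeq on GRCm38.p6, written 5′ to 3′ on the strand of the gene, with AGGTCA on either strand in capitals. For a gene with several starts only the first one listed was used, so a window may miss the main promoter. The Ddr2 window lies inside the gene's annotated span (169972307 to 170110762), at an internal start. The windows are Rxrg chr1:167598112-167598411 (plus strand), Ddr2 chr1:170088895-170089194 (minus strand), Foxc1 chr13:31806396-31806695 (plus strand), Fhl3 chr4:124700449-124700748 (plus strand) and Casr chr16:36562085-36562384 (minus strand).
Rxrg promoter window: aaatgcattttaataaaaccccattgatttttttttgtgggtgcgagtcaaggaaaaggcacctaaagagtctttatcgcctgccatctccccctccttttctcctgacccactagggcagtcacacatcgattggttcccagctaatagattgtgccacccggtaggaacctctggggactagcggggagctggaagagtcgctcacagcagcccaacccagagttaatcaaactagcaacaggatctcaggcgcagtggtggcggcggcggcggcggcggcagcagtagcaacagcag
Ddr2 promoter window: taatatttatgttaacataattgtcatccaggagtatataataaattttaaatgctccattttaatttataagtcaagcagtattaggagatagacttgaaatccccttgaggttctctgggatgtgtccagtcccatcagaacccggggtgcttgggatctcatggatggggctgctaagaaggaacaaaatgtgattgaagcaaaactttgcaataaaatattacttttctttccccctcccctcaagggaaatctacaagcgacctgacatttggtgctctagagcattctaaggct
Foxc1 promoter window: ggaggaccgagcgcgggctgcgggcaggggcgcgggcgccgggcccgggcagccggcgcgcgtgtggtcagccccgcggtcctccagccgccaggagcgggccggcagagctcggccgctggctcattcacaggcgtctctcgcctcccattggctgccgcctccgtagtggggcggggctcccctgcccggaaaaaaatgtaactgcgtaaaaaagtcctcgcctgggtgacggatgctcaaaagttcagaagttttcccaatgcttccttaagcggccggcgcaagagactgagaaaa
Fhl3 promoter window: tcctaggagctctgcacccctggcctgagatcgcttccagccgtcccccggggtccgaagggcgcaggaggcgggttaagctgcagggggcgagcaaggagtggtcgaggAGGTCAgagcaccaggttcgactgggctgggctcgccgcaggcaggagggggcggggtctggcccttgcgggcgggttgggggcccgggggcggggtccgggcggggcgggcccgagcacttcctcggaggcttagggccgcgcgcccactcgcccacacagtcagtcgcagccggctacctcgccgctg
Casr promoter window: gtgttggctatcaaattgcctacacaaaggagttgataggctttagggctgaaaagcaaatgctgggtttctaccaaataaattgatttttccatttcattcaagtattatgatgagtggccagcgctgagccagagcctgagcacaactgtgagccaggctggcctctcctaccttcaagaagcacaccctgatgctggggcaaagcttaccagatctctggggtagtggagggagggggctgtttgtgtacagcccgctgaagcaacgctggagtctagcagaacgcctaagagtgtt

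The window of Fhl3 held 1 match and the other 4 windows held 0 matches. AGGTCA stood in 11.2% of the 1174 windows of genes called higher and 13.8% of the 818 windows of genes called lower in RXRgKO-labelled libraries, beside 12.1% of the 12931 windows of all genes tested and 16% of 27025 windows listed. A direct repeat of the half-site, that is, a second copy in the same orientation, stood in 3 of the 27025 windows with a spacing of 4 bases and in 12 with a spacing of 1 base. Among the 12931 windows of genes tested these counts were 0 and 5, and among windows of called genes 0 and 0. The 0 in called genes was thus fixed in advance for the spacing of 4 and rests on too few matches for the spacing of 1. A match describes letters in a window and is not a bound site.

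Libraries held 18262279 to 42588442 counts in genes, and 25.6% to 46.7% of all reads the files account for lay in genes. Within each group of 4, some libraries were nearly alike and formed sets. Chi-square per gene was 1.485 to 2.085 within sets and 7.065 to 7.46 between sets of a group, RXRgKO-labelled replicates 1 and 2 forming a set, replicates 3 and 4 another, and WT-labelled replicate 1 standing apart from replicates 2 to 4. Xist, an RNA that female cells make from their silenced X chromosome, was at 1.39 and 1.53 CPM in RXRgKO-labelled replicates 1 and 2, at 723 and 711 CPM in replicates 3 and 4, while WT-labelled libraries had 276 to 401 CPM. The Y-linked gene Ddx3y was at 126 and 124 CPM in RXRgKO-labelled replicates 1 and 2, at 22.1 and 20.7 CPM in replicates 3 and 4, while WT-labelled libraries had 60.6 to 78.3 CPM. The sets of the RXRgKO label thus differ in their sex-linked genes, and the gene lists are given below with and without each set of the RXRgKO label. In bulk RNA, fewer cells of a type and less RNA per cell cannot be told apart.

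Of 19764 genes tested, 2943 (14.9%) were called, that is, they had a Benjamini-Hochberg adjusted p under 0.05 in edgeR's quasi-likelihood test. In RXRgKO-labelled libraries 1600 (8.10%) were higher and 1343 (6.80%) lower, and 1695 of them differed at least 2-fold, 1012 higher and 683 lower. Of the called genes, 2569 had no overlap between the 4 and 4 libraries, which a low p in groups of 4 favours, so that count is no separate support. The share without overlap over all genes tested is not given here. Protein-coding genes made up 2462 of the called genes, beside 15316 of the 19764 genes tested. Leaving out any single library gave 2178 to 3195 called genes, leaving out RXRgKO-labelled replicates 1 and 2 gave 2382, and leaving out replicates 3 and 4 gave 4246. In the fits without a set, the RXRgKO-labelled T3 group holds no spread between sets. All 2943 genes kept their direction in each fit with libraries left out. The fits reuse the libraries that the genes were called on, which favours a kept direction, so this is no independent support. With all 8 libraries and without each RXRgKO-labelled set, 1321 genes were called. With counts summed per set, which leaves 2 values for each T3 group, 110 genes were called, 41 higher and 69 lower in RXRgKO-labelled libraries. Of the 140 genes named in the text beside Rxrg and Lmx1a, 79 lost their call in that fit. The 140 include genes not called with all libraries, which had no call to lose.

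**Figure D1:**
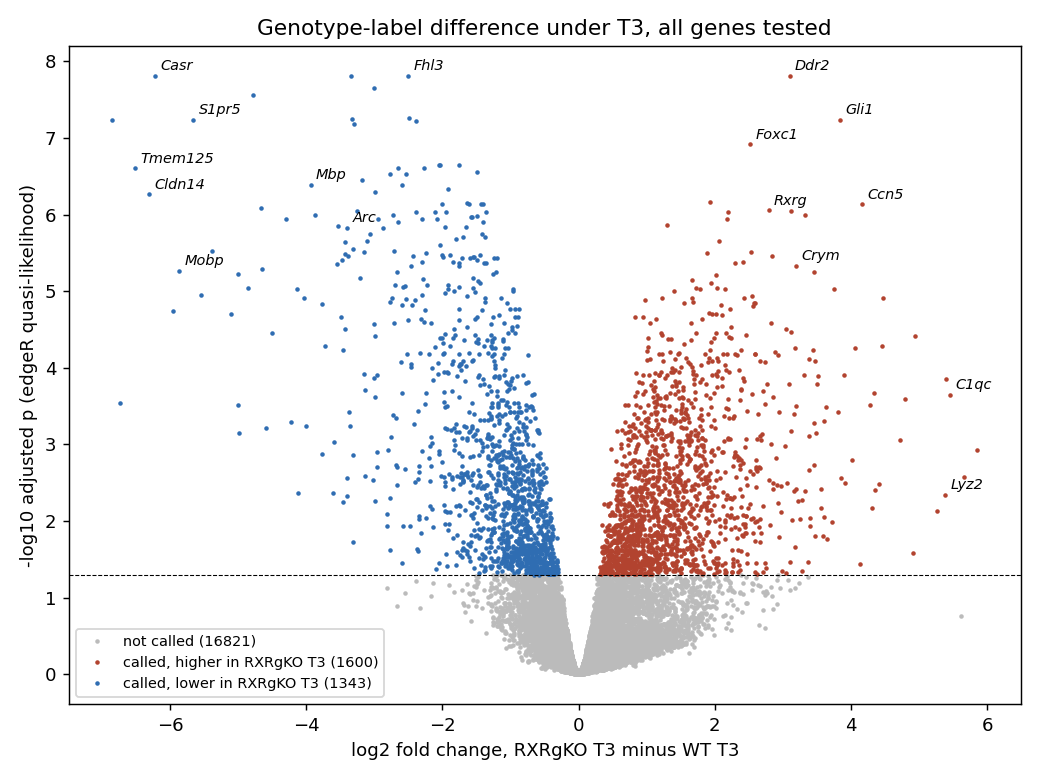
Log2 fold change between RXRgKO-labelled and WT-labelled T3-treated libraries (x axis) and minus log10 adjusted p (y axis) for all 19764 genes tested, with a dashed line at an adjusted p of 0.05. Myelin genes such as Tmem125 and Mobp lie at the far left, and Ddr2 and Gli1 are the highest points on the right.

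Genes of compact myelin and mature oligodendrocytes were lower in RXRgKO-labelled libraries. Of 34 tested members of the myelin list, 0 were higher, 23 lower and 11 not called, with a median log2 fold change of -1.56, beside a median of 0.025 over all genes tested. The counts of this and every later list are to be read beside the shares over all genes tested, 8.10% higher and 6.80% lower. Summed over the list, the level was 5933, 5827, 8518 and 8943 CPM in RXRgKO-labelled replicates 1 to 4, against 26750, 33870, 34070 and 34980 CPM in WT-labelled replicates 1 to 4. The median was -1.57 without RXRgKO-labelled replicates 1 and 2, -1.63 without replicates 3 and 4 and -1.50 without WT-labelled replicate 1. A further member, Ppp1r14a, had too few counts to be tested.

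Mbp, which encodes myelin basic protein, had 383, 393, 840 and 890 CPM in RXRgKO-labelled libraries, against 7593, 10320, 10130 and 10340 CPM in WT-labelled libraries. It was 15.3-fold lower in the RXRgKO-labelled libraries (log2 fold change -3.94, SE 0.30, adjusted p = 4.1e-07), and replicates 3 and 4 of that label lay above replicates 1 and 2. WT-labelled replicate 1 was the lowest of its group and still lay above all RXRgKO-labelled libraries. Mobp, a further myelin protein gene, had 2.98, 4.00, 20.1 and 20.7 CPM in RXRgKO-labelled libraries, against 348, 833, 812 and 836 CPM in WT-labelled libraries, a log2 fold change of -5.87 (SE 0.60, adjusted p = 5.4e-06). Mag, an adhesion protein of the innermost myelin layer, had 120, 113, 225 and 242 CPM in RXRgKO-labelled libraries, against 1332 to 1848 CPM in WT-labelled libraries, 9.10-fold lower in RXRgKO-labelled libraries (adjusted p = 3.6e-07).

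Several large fold differences were at low levels in RXRgKO-labelled libraries. Tmem125, a membrane protein gene of oligodendrocytes, had 0.387, 0.895, 0.364 and 0.320 CPM in RXRgKO-labelled libraries, against 20.1, 47.1, 48.3 and 52.6 CPM in WT-labelled libraries. That is 91.8-fold lower in the RXRgKO-labelled libraries (log2 fold change -6.52, SE 0.48, adjusted p = 2.5e-07), from 54 counts there against 4024. Hapln2, which links the matrix at nodes of Ranvier, had 0.526 to 1.33 CPM in RXRgKO-labelled libraries, against 17.3 to 30.2 CPM in WT-labelled libraries, and fell by 4.78 on the log2 scale (SE 0.28). Ermn, a cytoskeletal protein gene of mature oligodendrocytes, was 46.9-fold lower in RXRgKO-labelled libraries, and WT-labelled replicate 1, at 10.2 CPM, stood below replicates 2 to 4 at 61.6 to 71.9 CPM. Adamts4, a matrix protease gene of myelinating oligodendrocytes, was 10.8-fold lower (21.4 to 64.9 CPM in RXRgKO-labelled and 331 to 536 CPM in WT-labelled libraries).

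Not all members of the list fell. Opalin, an oligodendrocyte membrane protein gene, had 27.3, 30.0, 47.5 and 45.8 CPM in RXRgKO-labelled libraries, against 34.9, 19, 18.4 and 16.8 CPM in WT-labelled libraries. The groups overlap in WT-labelled replicate 1 and the gene was not called (log2 fold change 0.76, SE 0.30, adjusted p = 0.107), but it was without RXRgKO-labelled replicates 1 and 2 (1.03, adjusted p = 0.0448) and without WT-labelled replicate 1 (1.07). Mog, encoding a protein of the outer myelin surface, was lower in RXRgKO-labelled libraries, at 12.7, 13.2, 11.9 and 13.1 CPM against 49.8, 31.6, 30.2 and 30.6 CPM in WT-labelled libraries (log2 fold change -1.49, SE 0.32, adjusted p = 0.0036). Bcas1, a gene of newly formed oligodendrocytes, had a log2 fold change of 0.06 (adjusted p = 0.955) and Enpp6, an early oligodendrocyte enzyme, one of -0.61 (adjusted p = 0.340). Opalin and Mog were named after their values were seen.

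**Figure D2:**
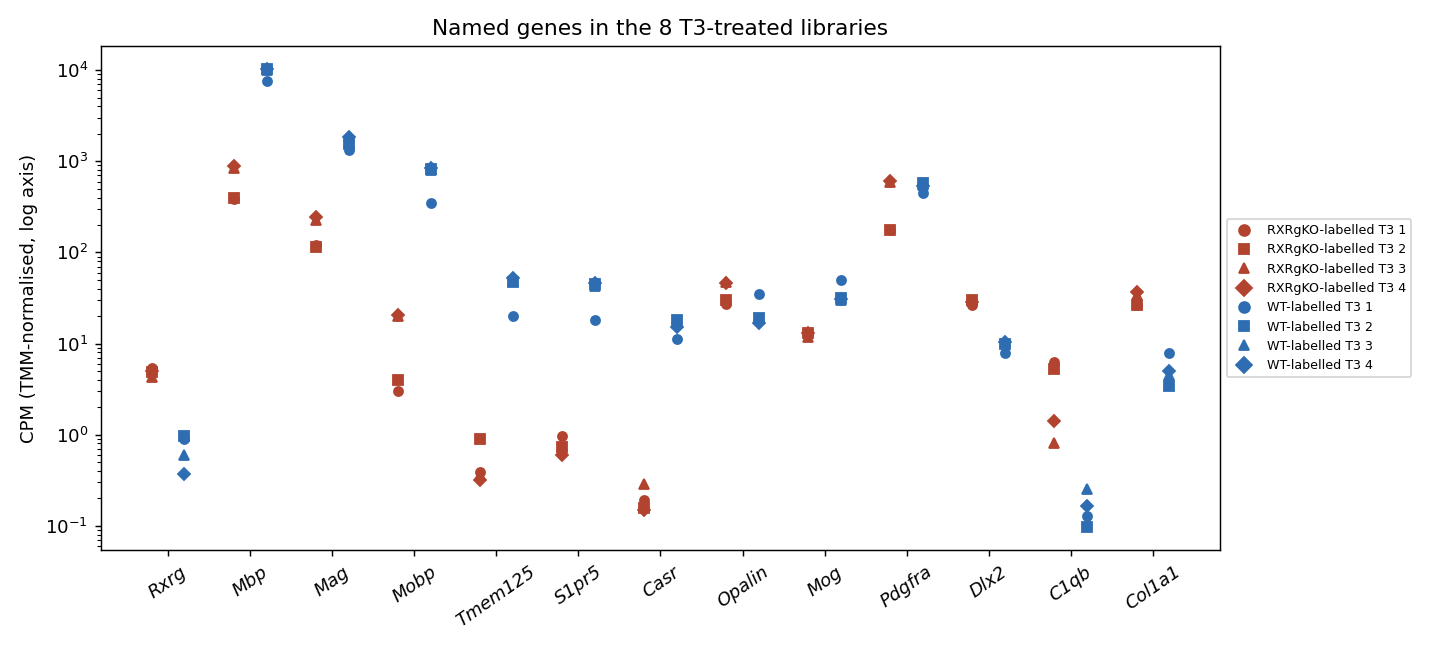
Level of 13 genes in each T3-treated library (CPM, log axis), RXRgKO-labelled in red at the left and WT-labelled in blue at the right of each gene. Rxrg, Dlx2, C1qb and Col1a1 were higher and the genes from Mbp to Casr lower in RXRgKO-labelled libraries, while Opalin and Pdgfra overlap.

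Committed and premyelinating oligodendrocyte genes had 20 members tested, of which 1 was higher, 9 lower and 10 not called (median -0.69, and -0.44 or -1.16 without RXRgKO-labelled replicates 1 and 2 or 3 and 4). The count of falls was 6 without RXRgKO-labelled replicate 1 and 6 without both replicates 1 and 2. Casr, the extracellular calcium-sensing receptor, had 0.193, 0.158, 0.286 and 0.148 CPM in RXRgKO-labelled libraries, against 11.1, 18.1, 16.7 and 15.2 CPM in WT-labelled libraries. It was 74.4-fold lower in the RXRgKO-labelled libraries (log2 fold change -6.22, SE 0.34, adjusted p = 1.55e-08), with 25 counts there against 1490. Nfasc, the neurofascin gene of axon and glial contacts, had 262, 271, 648 and 670 CPM in RXRgKO-labelled libraries, against 1831, 2091, 1972 and 1876 CPM in WT-labelled libraries, 4.20-fold lower in the RXRgKO-labelled ones. Frmd4a, a scaffold protein gene, was 3.90-fold lower, Cemip2, a hyaluronidase gene, 3.82-fold lower and Rras2, a small GTPase gene, 2.66-fold lower in RXRgKO-labelled libraries, with adjusted p from 1.5e-06 to 1.4e-04. Fyn, a kinase of early myelination, had a log2 fold change of -0.04 (adjusted p = 0.964), and Bcan, the proteoglycan brevican, one of -0.56 (adjusted p = 0.182).

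OPC markers did not separate the labels. Of 21 tested members 0 were higher and 0 lower (median 0.06), although the sets of the RXRgKO label differed, with 5 members lower without replicates 3 and 4 and 1 lower without replicates 1 and 2. Pdgfra, the growth factor receptor that defines OPCs, had 175, 175, 591 and 614 CPM in RXRgKO-labelled libraries, against 450, 573, 543 and 538 CPM in WT-labelled libraries (log2 fold change -0.44, SE 0.40, adjusted p = 0.557). RXRgKO-labelled replicates 3 and 4 lay above all WT-labelled libraries and replicates 1 and 2 lay below them. Without replicates 3 and 4, Pdgfra (-1.61) and Sox10 (-1.24) were called lower. The lineage factors Olig2 and Sox10 and the OPC proteoglycan Cspg4 had log2 fold changes of 0.03, -0.59 and -0.56 (adjusted p = 0.975, 0.308 and 0.181), at 215 to 468, 229 to 488 and 28.2 to 45.0 CPM in RXRgKO-labelled libraries and 283 to 440, 428 to 797 and 46.3 to 64.8 CPM in WT-labelled libraries. These 3 genes were named after their values were seen. Defining OPC markers were thus present in every library of both labels. Ptprz1, the most abundant uncalled member beside Pdgfra by the naming rule, had a log2 fold change of 0.06 (adjusted p = 0.898).

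Outside these lists, the leading falls in RXRgKO-labelled libraries were also at genes with low levels there. S1pr5, the sphingosine-1-phosphate receptor of the oligodendrocyte lineage, had 0.591 to 0.967 CPM in RXRgKO-labelled libraries, against 17.9, 45.4, 42.8 and 46.1 CPM in WT-labelled libraries, and was 50.7-fold lower in the RXRgKO-labelled ones. Cldn14, a tight junction claudin gene, was 79.5-fold lower (0.105 to 0.387 CPM in RXRgKO-labelled and 10.8 to 30.6 CPM in WT-labelled libraries). Dct, dopachrome tautomerase of the melanin pathway, was 61.8-fold lower, with 2.01, 2.37, 0.442 and 0.542 CPM in RXRgKO-labelled libraries and 18.9, 75.1, 90.9 and 122 CPM in WT-labelled libraries. Tppp, a tubulin polymerisation protein gene of oligodendrocytes, had 19.7, 20.3, 75.3 and 85.4 CPM in RXRgKO-labelled libraries, against 658, 1019, 941 and 914 CPM in WT-labelled libraries, a 17.6-fold difference. In both Dct and Tppp the 2 RXRgKO-labelled sets stood apart, but in opposite order.

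The falls with the lowest p are given next, a choice that favours genes with little spread between libraries. Fhl3, a LIM domain protein gene, had 2.05, 2.42, 2.19 and 2.29 CPM in RXRgKO-labelled libraries, against 12.5, 12.3, 12.8 and 13.2 CPM in WT-labelled libraries (log2 fold change -2.51, SE 0.14, adjusted p = 1.55e-08). Slc22a21, a carnitine transporter gene, was 10.1-fold lower and Jakmip3, a gene of a microtubule-binding protein, 8.06-fold lower in RXRgKO-labelled libraries. Erbb3, the neuregulin receptor, was 7.67-fold lower (1.82 to 3.52 CPM in RXRgKO-labelled and 14.8 to 25.7 CPM in WT-labelled libraries, adjusted p = 1.1e-06).

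Genes of other brain cell types were higher in RXRgKO-labelled libraries for most lists. The lists of microglia, mesenchymal and mural cells, GABAergic interneurons, endothelium, ependymal cells and neurons all had a higher mean log2 CPM in each RXRgKO-labelled library than in any WT-labelled library. For each of these 6 lists the exact permutation test gave p = 0.0286, two-sided, which is the minimum for groups of 4, and adjusted p = 0.0694 over 17 library measures, so none passed the adjusted threshold. The normalisation factor of the libraries did the same, at 1.003 ± 0.048 for RXRgKO-labelled and 0.914 ± 0.021 for WT-labelled libraries (SD, n = 4 each; exact p = 0.0286, adjusted 0.0694). The astrocyte list did not separate the labels, with mean log2 CPM of 7.27 ± 0.213 in RXRgKO-labelled and 7.18 ± 0.522 in WT-labelled libraries (SD, n = 4 each; exact p = 0.771). None of these lists had a marker at 0 in every library of a group. The part of these cell types in the results of other gene groups was not tested.

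**Figure D3:**
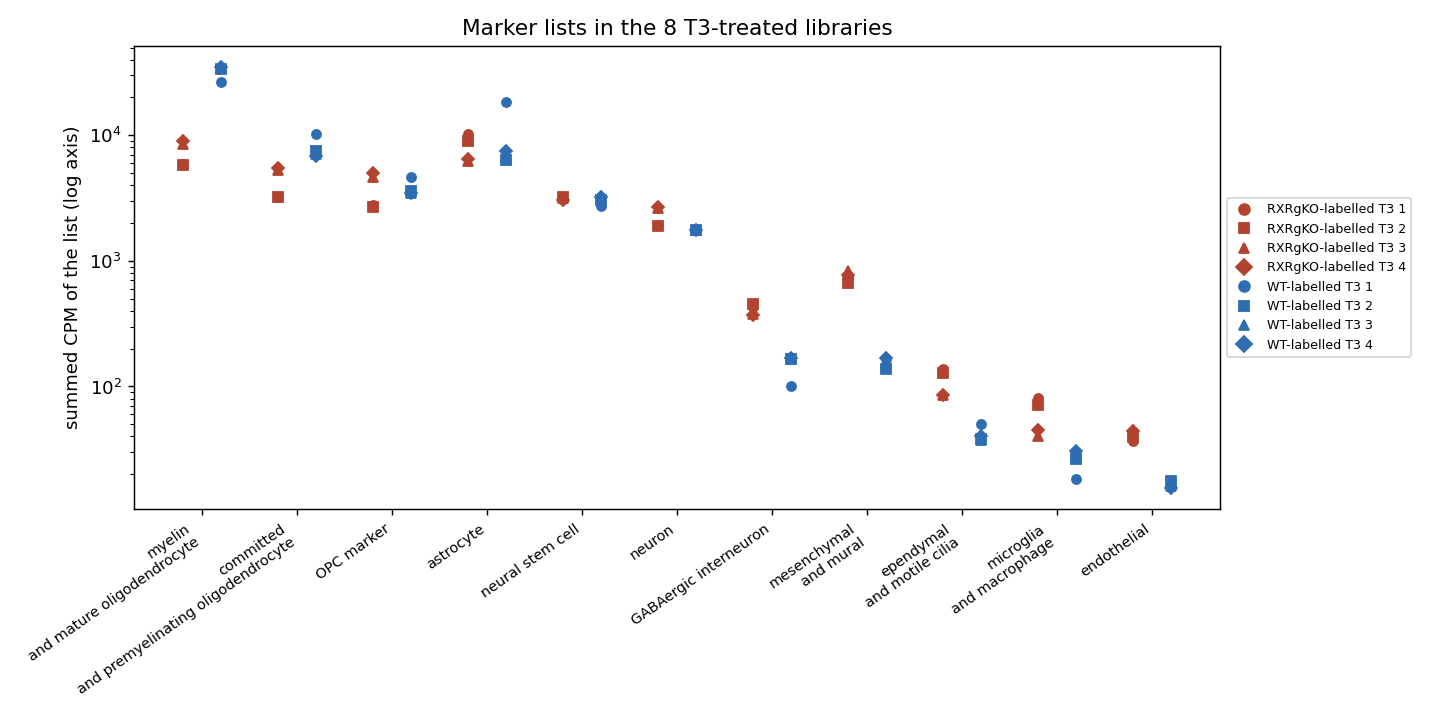
Summed level of 11 marker lists in each T3-treated library (CPM, log axis), RXRgKO-labelled in red at the left and WT-labelled in blue at the right of each list. The myelin list was lower and the interneuron, mesenchymal, ependymal, microglia and endothelial lists higher in every RXRgKO-labelled library, while OPC, astrocyte and neural stem cell lists overlap.

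Microglia and macrophage genes had 17 members tested, of which 15 were higher and 0 lower in RXRgKO-labelled libraries (median 3.60). Summed over the list they reached 80.4, 71.2, 40.3 and 45.4 CPM in RXRgKO-labelled libraries, against 18.4, 26.5, 28.6 and 30.5 CPM in WT-labelled libraries. Without RXRgKO-labelled replicates 1 and 2 the list had 9 members higher and a median of 2.31, and without replicates 3 and 4 it had 14 and 4.02. C1qb, a complement component, had 6.23, 5.21, 0.806 and 1.43 CPM in RXRgKO-labelled libraries, against 0.126, 0.0960, 0.256 and 0.165 CPM in WT-labelled libraries, 20.3-fold higher in the RXRgKO-labelled ones from 349 counts there and 16 in the WT-labelled ones. Fcrls and Ctss, both microglial, were 30.7-fold and 16.6-fold higher, and the microglial membrane protein gene Tmem119 was at 0.806 to 1.62 CPM in RXRgKO-labelled and 0.0480 to 0.124 CPM in WT-labelled libraries. Lyz2, the lysozyme gene of macrophages, was at 31.1 and 22.4 CPM in RXRgKO-labelled replicates 1 and 2, at 1.04 and 0.714 CPM in replicates 3 and 4, while WT-labelled libraries had 0.240 to 0.427 CPM. It was called with all 8 libraries (log2 fold change 5.39, SE 1.18, adjusted p = 0.0045; 4.56 to 5.78 with any single library left out), but not without RXRgKO-labelled replicates 1 and 2 (1.40, adjusted p = 0.344). P2ry12, a purinergic receptor of resting microglia, did not follow, with 0.632 to 1.28 CPM in RXRgKO-labelled and 0.960 to 1.61 CPM in WT-labelled libraries (log2 fold change -0.39, adjusted p = 0.589).

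Mesenchymal and mural genes had 13 of 18 tested members higher and 0 lower in RXRgKO-labelled libraries (median 2.42, and 2.05 or 2.30 without RXRgKO-labelled replicates 1 and 2 or 3 and 4). The summed level was 748.8, 669, 827.9 and 775.7 CPM in RXRgKO-labelled libraries, against 166, 138.7, 157.8 and 168.8 CPM in WT-labelled libraries. Acta2, smooth muscle actin, had 213, 174, 304 and 274 CPM in RXRgKO-labelled libraries, against 25.1, 23.6, 29.8 and 34.7 CPM in WT-labelled libraries (8.52-fold higher, adjusted p = 1.6e-04). The smooth muscle gene Tagln was 7.26-fold and the collagen gene Col1a1 5.90-fold higher in RXRgKO-labelled libraries, with no overlap between the labels. Dcn, the small proteoglycan decorin, had 21.2, 17.7, 2.91 and 3.40 CPM in RXRgKO-labelled libraries, against 0.624 to 1.15 CPM in WT-labelled libraries, so replicates 1 and 2 of the RXRgKO label lay well above replicates 3 and 4. Pdgfrb, a receptor of mural cells, had 7.82, 7.89, 24.6 and 24.0 CPM in RXRgKO-labelled libraries and 14.1 to 17.1 CPM in WT-labelled libraries, and was not called (log2 fold change 0.03, adjusted p = 0.980).

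Endothelial genes had 6 of 11 tested members higher and 0 lower in RXRgKO-labelled libraries (median 1.34, and 1.02 or 1.25 without RXRgKO-labelled replicates 1 and 2 or 3 and 4, at a summed 37.0 to 44.7 CPM against 15.5 to 17.7 CPM in WT-labelled libraries). Kdr, a receptor for vascular endothelial growth factor, had 17.3, 16.9, 29.1 and 29.5 CPM in RXRgKO-labelled libraries, against 8.09, 8.40, 7.85 and 6.60 CPM in WT-labelled libraries. Cdh5, the cadherin of endothelial junctions, was at 0.416 to 1.16 CPM in RXRgKO-labelled and 0.0412 to 0.126 CPM in WT-labelled libraries. Ependymal and motile cilia genes had 10 of 15 members higher and 0 lower (median 1.27, summed 85.1 to 138 CPM in RXRgKO-labelled and 37.7 to 49.9 CPM in WT-labelled libraries). This became 8 higher with a median of 0.72 without RXRgKO-labelled replicates 1 and 2, and 11 higher with a median of 1.46 without replicates 3 and 4. Foxj1, the regulator of motile cilia, had 72.9, 64.2, 49.9 and 49.9 CPM in RXRgKO-labelled libraries, against 32.6, 21.6, 21.2 and 22.7 CPM in WT-labelled libraries. Rsph4a, a radial spoke gene, was 6.02-fold and Pifo, a cilium assembly gene, 9.14-fold higher in RXRgKO-labelled libraries.

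GABAergic interneuron genes had 13 of 17 members higher and 0 lower in RXRgKO-labelled libraries (median 1.76), with 9 higher (median 1.54) without RXRgKO-labelled replicates 1 and 2 and 14 higher (median 1.67) without replicates 3 and 4. Their sum was 428.6, 455.2, 377.7 and 369.3 CPM in RXRgKO-labelled libraries, against 100.1, 167, 166.9 and 170 CPM in WT-labelled libraries. Dlx1, a homeobox factor that specifies interneurons, had 96.7, 96.0, 77.8 and 76.7 CPM in RXRgKO-labelled libraries, against 15.7, 28.6, 28.2 and 26.1 CPM in WT-labelled libraries (3.53-fold higher, adjusted p = 1.4e-04). Gad2, a GABA synthesis enzyme, was 5.42-fold higher, Lhx6, a factor of medial ganglionic eminence interneurons, 5.31-fold, Sp9 3.72-fold and Dlx2 2.96-fold higher in RXRgKO-labelled libraries. Sp8, a further interneuron factor, was not called (log2 fold change -0.30, adjusted p = 0.567).

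General neuron genes had 8 of 18 members higher and 1 lower (median 0.71, at a summed 1885 to 2682 CPM in RXRgKO-labelled and 1770 to 1789 CPM in WT-labelled libraries). The count of rises was 5 without RXRgKO-labelled replicate 2 or WT-labelled replicate 4, and the median 0.84 or 0.43 without RXRgKO-labelled replicates 1 and 2 or 3 and 4. Tbr1, a factor of cortical glutamatergic neurons, had 3.75, 3.95, 7.02 and 6.97 CPM in RXRgKO-labelled libraries, against 2.37, 1.44, 1.66 and 1.61 CPM in WT-labelled libraries. Slc17a6, a vesicular glutamate transporter, was 2.42-fold higher in RXRgKO-labelled libraries. Map2, a dendritic microtubule protein gene, was 1.48-fold higher (adjusted p = 0.0040), but not called without RXRgKO-labelled replicates 3 and 4 (log2 fold change 0.37, adjusted p = 0.0771). Elavl3, a neuronal RNA-binding protein gene, went the other way, at 79.2, 87.4, 236 and 235 CPM in RXRgKO-labelled libraries against 367 to 432 CPM in WT-labelled libraries (log2 fold change -1.33, adjusted p = 0.0092; -0.81 and adjusted p = 0.0590 without RXRgKO-labelled replicates 1 and 2). Dcx and Tubb3, genes of young neurons, had log2 fold changes of 0.62 (adjusted p = 0.187) and 0.66 (adjusted p = 0.0860).

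Astrocyte genes had 1 of 18 members higher and 0 lower (median -0.07; 3 higher without WT-labelled replicate 1 and 0 without replicate 2 or 3), and neural stem cell genes 2 of 12 higher and 0 lower (median 0.21). The astrocyte list had 0 called (median -0.29) without RXRgKO-labelled replicates 1 and 2, and 2 higher and 1 lower (median 0.14) without replicates 3 and 4. In the same fits the neural stem cell list had 4 higher (median 0.17) and 2 higher (median 0.07). With all libraries 5.56% of the astrocyte and 16.7% of the neural stem cell members were higher, beside 8.10% over all genes tested. Gfap, the astrocyte filament, had 4010, 3458, 1756 and 1944 CPM in RXRgKO-labelled libraries, against 11210, 2455, 2598 and 2834 CPM in WT-labelled libraries, with WT-labelled replicate 1 far above the rest (log2 fold change -0.77, SE 0.67, adjusted p = 0.524; 0.09 without WT-labelled replicate 1). Slc1a3, an astrocytic glutamate transporter, had a log2 fold change of 0.39 (adjusted p = 0.283). The astrocyte member called higher in RXRgKO-labelled libraries was Id3, an inhibitor of differentiation, at 432, 395, 256 and 262 CPM against 204, 58.7, 67.0 and 85.5 CPM in WT-labelled libraries (log2 fold change 1.69, adjusted p = 0.0125). Its adjusted p was 0.0508 and 0.0501 without WT-labelled replicate 2 or 3 and 0.0920 without RXRgKO-labelled replicates 1 and 2. Schwann cell and neural crest genes had 3 of 10 members higher and 1 lower (median 0.34, and 0.33 or 0.26 without RXRgKO-labelled replicates 1 and 2 or 3 and 4).

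**Figure D4:**
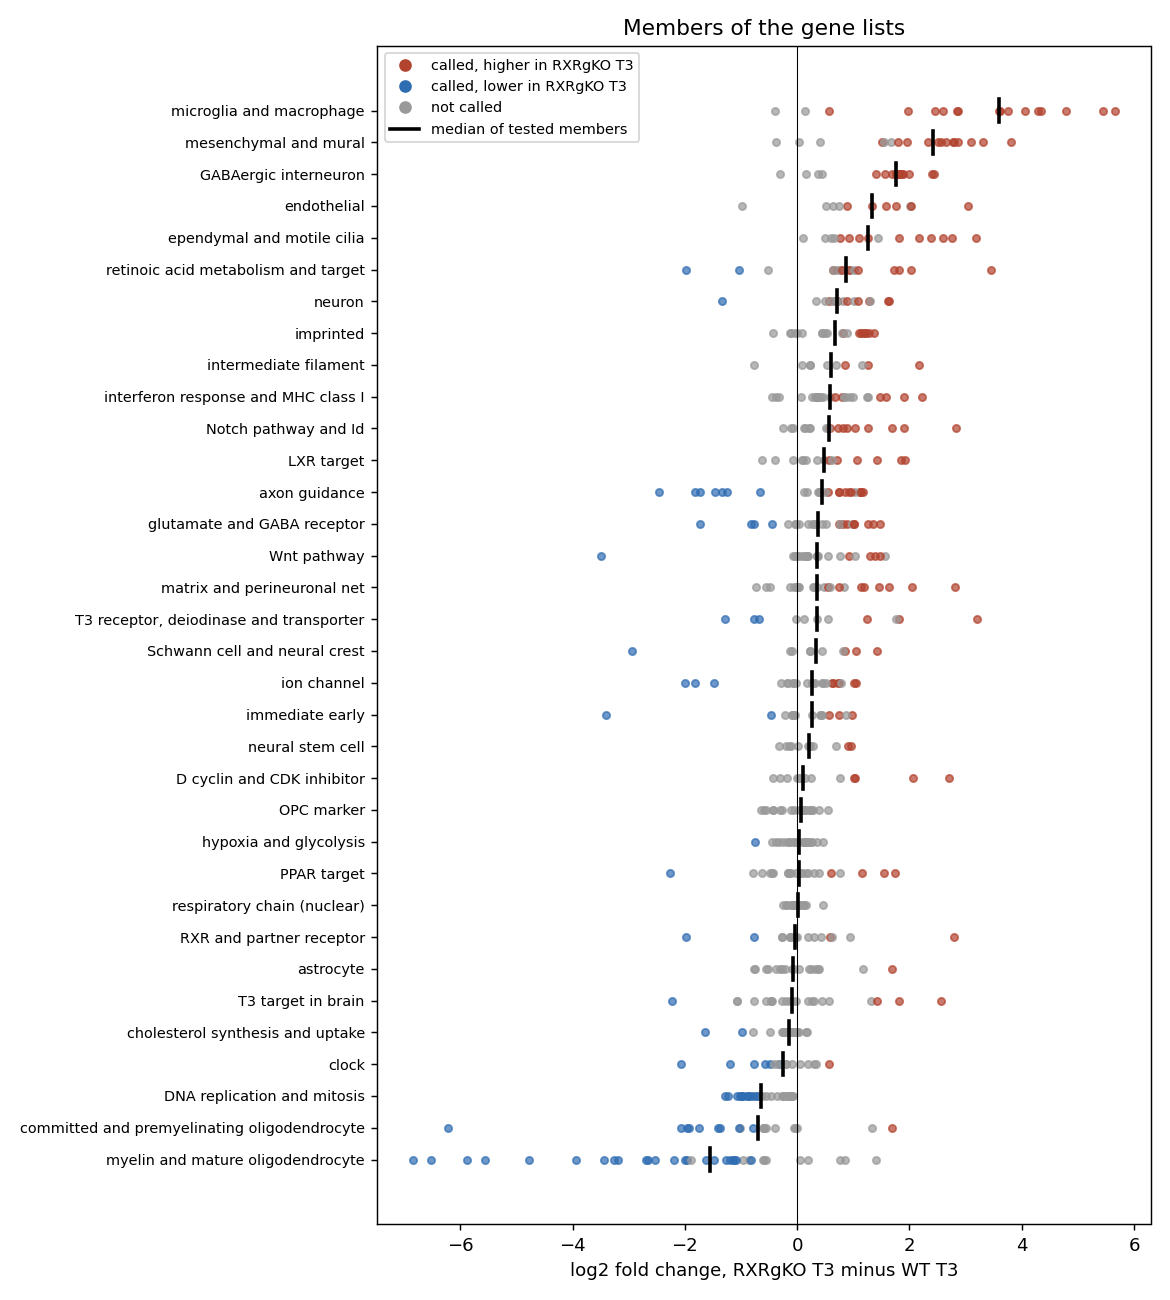
Log2 fold change between RXRgKO-labelled and WT-labelled T3-treated libraries (x axis) for every tested member of 34 gene lists (y axis, ordered by median), with a black bar at each list's median. The myelin list has the lowest median, -1.56, and the microglia list the highest, 3.60.

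Leading rises in RXRgKO-labelled libraries included receptors and signalling genes. Ddr2, a collagen receptor kinase (GRCm38 chromosome 1, 169972307 to 170110762), had 21.7, 20.6, 16.6 and 15.5 CPM in RXRgKO-labelled libraries, against 2.31, 1.82, 2.05 and 2.43 CPM in WT-labelled libraries (8.58-fold higher, log2 fold change 3.10, SE 0.17, adjusted p = 1.55e-08). Gli1, the transcription factor that reads out hedgehog signalling, had 5.03, 4.89, 4.71 and 4.48 CPM in RXRgKO-labelled libraries, against 0.348, 0.384, 0.341 and 0.247 CPM in WT-labelled libraries, 14.3-fold higher. Shh, the ligand Sonic hedgehog, had 3.10, 3.16, 14.4 and 14.4 CPM in RXRgKO-labelled libraries, against 1.36 to 1.82 CPM in WT-labelled libraries (log2 fold change 2.56, SE 0.66, adjusted p = 0.0144). Without RXRgKO-labelled replicates 3 and 4, Shh was not called (1.03, adjusted p = 0.277), whereas Gli1 was at the same level in both sets.

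Foxc1, a forkhead factor of meningeal and vascular cells, had 6.73, 6.42, 5.05 and 4.55 CPM in RXRgKO-labelled libraries, against 1.17, 0.816, 0.811 and 1.11 CPM in WT-labelled libraries (5.72-fold higher, adjusted p = 1.2e-07). It also stood on the mesenchymal list. Vax1, a ventral forebrain homeobox factor, was 8.66-fold higher, with 4.22 to 4.66 CPM in RXRgKO-labelled and 0.341 to 0.768 CPM in WT-labelled libraries. Ccn5, a matricellular protein gene, was 18-fold and Vnn1, a pantetheinase gene, 10.0-fold higher in RXRgKO-labelled libraries. For these 4 genes no library of one label reached the range of the other, which the rule for naming leading rises required.

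Notch pathway and Id genes, which hold OPCs in an undifferentiated state, had 9 of 18 members higher and 0 lower in RXRgKO-labelled libraries (median 0.57). The count was 6 without WT-labelled replicate 2 or 3, 6 without RXRgKO-labelled replicates 3 and 4, and 7 without replicates 1 and 2, and without replicates 3 and 4 another 2 members were lower. The medians were 0.76 without replicates 1 and 2 and 0.41 without replicates 3 and 4. Heyl, a Notch target repressor, was 7.13-fold higher, with 1.51, 0.842, 2.65 and 2.41 CPM in RXRgKO-labelled libraries against 0.190, 0.288, 0.256 and 0.330 CPM in WT-labelled libraries. Hes1, a second target repressor, had 14.6, 12.3, 14.5 and 14.3 CPM in RXRgKO-labelled libraries, against 7.62, 6.53, 7.89 and 8 CPM in WT-labelled libraries (adjusted p = 0.0017). The ligand gene Dll3 was 2.04-fold higher, Id2 1.75-fold and Id4 1.65-fold higher in RXRgKO-labelled libraries. Id2 lost its call without RXRgKO-labelled replicates 1 and 2 (adjusted p = 0.101) and Id4 without replicates 3 and 4 (adjusted p = 0.0537). The receptor gene Notch1 had a log2 fold change of 0.13 (adjusted p = 0.745).

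Wnt pathway genes had 4 of 23 members higher and 1 lower (median 0.35), or 8 higher and 1 lower without WT-labelled replicate 1. The median was 0.49 (3 higher) without RXRgKO-labelled replicates 1 and 2 and 0.07 (4 higher) without replicates 3 and 4. With all libraries 17.4% were higher and 4.35% lower, beside 8.10% and 6.80% over all genes tested. The ligand Wnt3 was the member that fell, at 0.696, 1.10, 1.93 and 2.29 CPM in RXRgKO-labelled libraries against 9.10, 21.9, 19.7 and 19.4 CPM in WT-labelled libraries (11.2-fold lower, adjusted p = 2.2e-05). The ligand Wnt5a was 1.89-fold and the Wnt agonist Rspo2 2.78-fold higher in RXRgKO-labelled libraries.

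Among genes that carry or read the T3 signal, the direction was mixed. Of 11 tested receptors, deiodinases and transporters 3 were higher and 3 lower in RXRgKO-labelled libraries (median 0.35, and 0.16 or 0.72 without RXRgKO-labelled replicates 1 and 2 or 3 and 4). Crym, a cytosolic T3-binding protein, had 10.5, 10.5, 18.7 and 17.8 CPM in RXRgKO-labelled libraries, against 1.23, 1.34, 1.41 and 2.31 CPM in WT-labelled libraries, 9.17-fold higher (adjusted p = 4.6e-06). Dio3, the deiodinase that inactivates T3, had 10.8, 9.47, 4.21 and 3.54 CPM in RXRgKO-labelled libraries, against 1.68, 2.06, 2.09 and 2.10 CPM in WT-labelled libraries, 3.50-fold higher (adjusted p = 8.1e-04). Dio2, the deiodinase that makes T3, was 2.44-fold lower (13.2 to 14.9 CPM in RXRgKO-labelled and 31.7 to 37.5 CPM in WT-labelled libraries), and the receptor gene Thrb 1.70-fold lower (10.1 to 12.1 and 15.7 to 24.2 CPM). In all 4 genes the labels did not overlap.

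Known T3 targets of brain had 3 of 22 members higher and 1 lower (median -0.10), and 2 lower without WT-labelled replicate 1. The shares with all libraries, 13.6% higher and 4.55% lower, lay near those over all genes tested (8.10% and 6.80%). They had 4 higher and 4 lower (median -0.26) without RXRgKO-labelled replicates 1 and 2, and 3 higher and 3 lower (median -0.13) without replicates 3 and 4. With all libraries the fall was Trh, thyrotropin-releasing hormone, with 1.21 to 1.82 CPM in RXRgKO-labelled libraries and 1.36, 7.63, 9.94 and 9.36 CPM in WT-labelled libraries, where replicate 1 lay within the range of the RXRgKO-labelled libraries (log2 fold change -2.23, adjusted p = 0.0092). Hr, a corepressor gene induced by T3 in brain, had 83.3, 82.3, 164 and 166 CPM in RXRgKO-labelled libraries, against 290, 197, 187 and 166 CPM in WT-labelled libraries, and was not called (log2 fold change -0.76, adjusted p = 0.0993; called at -1.37 without RXRgKO-labelled replicates 3 and 4).

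Of 17 retinoid X receptors and partner receptors, 2 were higher and 2 lower in RXRgKO-labelled libraries (median -0.03), Rxrg among the rises, and 1 higher without any one of RXRgKO-labelled replicates 3 and 4 and WT-labelled replicates 2, 3 and 4. The median was 0.14 without RXRgKO-labelled replicates 1 and 2 and -0.34 without replicates 3 and 4. With all libraries 11.8% were higher and 11.8% lower, near the shares over all genes tested (8.10% and 6.80%). Rarb, the retinoic acid receptor beta, which retinoic acid induces, had 1.93, 1.58, 1.98 and 1.97 CPM in RXRgKO-labelled libraries, against 2.88, 8.74, 8.62 and 9.61 CPM in WT-labelled libraries (3.95-fold lower, adjusted p = 0.0062). Nr1d1, a heme receptor of the clock, was 1.70-fold lower in RXRgKO-labelled libraries. Genes of retinoic acid handling had 8 of 16 members higher and 2 lower (median 0.87, and 0.75 or 1.02 without RXRgKO-labelled replicates 1 and 2 or 3 and 4). Crabp1, a retinoic acid-binding protein, was 4.09-fold higher (2.73 to 4.06 CPM in RXRgKO-labelled and 0.725 to 0.948 CPM in WT-labelled libraries), Cyp26b1, which breaks retinoic acid down, 3.29-fold higher, and Stra6, a retinol uptake receptor, 3.52-fold higher. Aldh1a2, which makes retinoic acid, had 7.70, 8.16, 1.56 and 1.97 CPM in RXRgKO-labelled libraries, against 0.256 to 0.624 CPM in WT-labelled libraries (log2 fold change 3.45, adjusted p = 0.0018), and its levels moved with the sets as those of Dcn did.

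Liver X receptor targets had 6 of 15 members higher and 0 lower in RXRgKO-labelled libraries (median 0.48), or 3 higher (median 0.32) without replicates 1 and 2 and 7 higher (median 0.33) without replicates 3 and 4. Abcg1, a cholesterol exporter, had 7.47, 7.95, 11.1 and 11.3 CPM in RXRgKO-labelled libraries, against 4.42, 2.11, 1.96 and 1.81 CPM in WT-labelled libraries, and was 3.62-fold higher (adjusted p = 6.5e-05). Pltp, a phospholipid transfer protein, was 3.79-fold higher, and Apoe, the brain's lipoprotein, had a log2 fold change of 0.10 (adjusted p = 0.902). Peroxisome proliferator-activated receptor targets had 4 of 22 members higher and 1 lower (median 0.03), and 0 higher and 2 lower (median -0.25) without RXRgKO-labelled replicates 1 and 2. It was 7 higher and 3 lower (median 0.15) without replicates 3 and 4. There were 2 falls without WT-labelled replicate 1. The shares with all libraries were 18.2% higher and 4.55% lower, beside 8.10% and 6.80% over all genes tested. The fall with all libraries, Ehhadh, an enzyme of peroxisomal fatty acid oxidation, had 2.05, 1.58, 2.52 and 2.46 CPM in RXRgKO-labelled libraries, against 5.59, 11.6, 11.4 and 13.4 CPM in WT-labelled libraries. Cd36, a fatty acid receptor, was 2.91-fold higher in RXRgKO-labelled libraries, but not called without replicates 1 and 2 (log2 fold change 1.00, adjusted p = 0.120).

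Cholesterol synthesis and uptake genes had 0 of 25 members higher and 2 lower in RXRgKO-labelled libraries (median -0.14). The share of falls, 8%, lay near that over all genes tested, 6.80%. Hsd17b7, an enzyme of late cholesterol synthesis, had 91.3, 80.4, 72.5 and 77.6 CPM in RXRgKO-labelled libraries, against 186, 274, 268 and 270 CPM in WT-labelled libraries (3.10-fold lower, adjusted p = 7.1e-07). Ebp, the sterol isomerase, was 1.97-fold lower in RXRgKO-labelled libraries (adjusted p = 3.2e-05). Hmgcs1, an early enzyme of the pathway, had a log2 fold change of -0.01 (adjusted p = 0.982). Without RXRgKO-labelled replicates 1 and 2 the list had 5 falls (median -0.40), and without replicates 3 and 4 it had 3 (median -0.03).

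DNA replication and mitosis genes had 0 of 30 members higher and 13 lower in RXRgKO-labelled libraries (median -0.64), and all 30 had a negative log2 fold change. The count of falls was 8 without RXRgKO-labelled replicate 3, 22 without replicates 1 and 2 (median -1.23) and 7 without replicates 3 and 4 (median -0.28). The list summed to 1445, 1376, 821.7 and 815.3 CPM in RXRgKO-labelled libraries, against 2033, 1507, 1531 and 1523 CPM in WT-labelled libraries. Cenpe, a kinetochore motor, had 20.4, 21.9, 18.2 and 16.5 CPM in RXRgKO-labelled libraries, against 62.6, 41.9, 39.9 and 36.0 CPM in WT-labelled libraries (2.35-fold lower, adjusted p = 1.0e-04). The mitotic kinase Plk1 was 2.44-fold, the proliferation marker Mki67 2.11-fold and the centromere protein Cenpf 2.03-fold lower in RXRgKO-labelled libraries. Rrm2, which makes nucleotides for replication, had 100, 98.8, 34.7 and 33.0 CPM in RXRgKO-labelled libraries, against 59.2 to 85.3 CPM in WT-labelled libraries, the sets lying on either side of the WT-labelled range (log2 fold change -0.09, adjusted p = 0.923; called at -1.10 without replicates 1 and 2).

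D cyclins and inhibitors of cyclin-dependent kinases had 4 of 14 members higher and 0 lower in RXRgKO-labelled libraries (median 0.10), with 3 higher (median 0.05) without RXRgKO-labelled replicates 1 and 2 and 5 higher and 1 lower (median 0.21) without replicates 3 and 4. Cdk6, a partner of D cyclins, had 36.3, 35.4, 26.1 and 26.9 CPM in RXRgKO-labelled libraries, against 10.3, 7.97, 5.85 and 5.73 CPM in WT-labelled libraries, 4.16-fold higher (adjusted p = 2.2e-06). Ccnd2, cyclin D2, was 2.05-fold higher. Cdkn2a, a locus of senescence inhibitors that blocks the same step, had 18.4, 18.2, 4.87 and 5.37 CPM in RXRgKO-labelled libraries, against 1.39 to 2.39 CPM in WT-labelled libraries, 6.50-fold higher (adjusted p = 7.3e-04).

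Clock genes had 1 of 16 members higher and 6 lower in RXRgKO-labelled libraries (median -0.26), and 3 lower without RXRgKO-labelled replicate 1, 3 or 4 or WT-labelled replicate 1. The rise was lost without any one of RXRgKO-labelled replicates 3 and 4 and WT-labelled replicates 2, 3 and 4. Without either RXRgKO-labelled set there were 3 falls (median -0.32 without replicates 1 and 2 and -0.31 without replicates 3 and 4). Bhlhe41, a clock repressor, had 6.62, 7.16, 3.77 and 4.33 CPM in RXRgKO-labelled libraries, against 23.6, 23.8, 21.3 and 22.6 CPM in WT-labelled libraries, 4.21-fold lower (adjusted p = 1.15e-06). Ciart, a second repressor, was 2.28-fold lower. Immediate early genes had 3 of 15 members higher and 2 lower (median 0.27), with 0 higher without WT-labelled replicate 3 and 1 without WT-labelled replicate 2 or 4 or RXRgKO-labelled replicate 3 or 4, and 1 lower without any one of RXRgKO-labelled replicates 1 and 2 and WT-labelled replicates 2, 3 and 4. The list had 2 higher and 1 lower (median 0.26) without RXRgKO-labelled replicates 1 and 2, and 2 higher and 3 lower (median 0.13) without replicates 3 and 4. With all libraries 20% were higher and 13.3% lower, beside 8.10% and 6.80% over all genes tested. Arc, an activity-induced synaptic gene, had 1.43, 1.16, 3.41 and 2.86 CPM in RXRgKO-labelled libraries, against 15.9, 27.8, 25.2 and 27.8 CPM in WT-labelled libraries, 10.6-fold lower (adjusted p = 1.5e-06), while Fos had a log2 fold change of -0.21 (adjusted p = 0.691).

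Imprinted genes had 8 of 20 members higher and 0 lower in RXRgKO-labelled libraries (median 0.67). The count was 4 without any one of RXRgKO-labelled replicates 3 and 4 and WT-labelled replicates 2, 3 and 4, and 10 (median 0.78) or 4 with 1 lower (median 0.19) without RXRgKO-labelled replicates 1 and 2 or 3 and 4. Rian, a maternally expressed long RNA, had 195, 198, 158 and 147 CPM in RXRgKO-labelled libraries, against 62.3, 78.0, 83.1 and 76.9 CPM in WT-labelled libraries (2.32-fold higher, adjusted p = 6.4e-04). Meg3, from the same cluster, was 1.76-fold higher.

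Interferon response and class I genes had 7 of 25 members higher and 0 lower (median 0.59), and this count rested on the sets. It was 1 higher and 3 lower (median 0.20) without RXRgKO-labelled replicates 1 and 2, 14 higher and 0 lower (median 0.86) without replicates 3 and 4, and 3 higher without any one of RXRgKO-labelled replicates 1 and 2 and WT-labelled replicates 2, 3 and 4. Usp18, an interferon-induced regulator, had 4.95, 5.42, 1.90 and 1.77 CPM in RXRgKO-labelled libraries, against 0.443 to 0.939 CPM in WT-labelled libraries (adjusted p = 8.4e-04). Bst2, the restriction factor tetherin, was called with all libraries (log2 fold change 1.91, adjusted p = 0.0098), but not without RXRgKO-labelled replicates 1 and 2 (0.77, adjusted p = 0.276). B2m, the light chain of class I molecules, had 146, 129, 52.7 and 58.2 CPM in RXRgKO-labelled libraries, against 78.1 to 84.1 CPM in WT-labelled libraries, and was not called (log2 fold change 0.26, adjusted p = 0.621). Its value was 0.74 (adjusted p = 0.0098) without replicates 3 and 4 and -0.58 (adjusted p = 0.0482) without replicates 1 and 2, so the call turned with the set. Among 22 hypoxia and glycolysis genes 0 were higher and 1 lower (median 0.04) and nuclear genes of the respiratory chain 0 of 22 called (median 0.01). Their medians were 0.04 and -0.17 without RXRgKO-labelled replicates 1 and 2, and -0.23 and 0.06 without replicates 3 and 4.

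Genes of matrix and perineuronal nets had 8 of 23 members higher and 0 lower in RXRgKO-labelled libraries (median 0.35), 5 higher without any one of RXRgKO-labelled replicates 3 and 4 and WT-labelled replicates 2 and 3, and 4 higher with 2 lower (median 0.04) without RXRgKO-labelled replicates 3 and 4, against 6 higher and 0 lower (median 0.42) without replicates 1 and 2. Lamb1, a laminin chain, had 11.7, 11.6, 20.4 and 20.1 CPM in RXRgKO-labelled libraries, against 3.37 to 4.32 CPM in WT-labelled libraries (4.11-fold higher, adjusted p = 1.3e-04). Hapln1, a hyaluronan link protein of nets, had 15.3, 13.8, 1.64 and 1.48 CPM in RXRgKO-labelled libraries and 0.816 to 1.48 CPM in WT-labelled libraries, and was not called without RXRgKO-labelled replicates 1 and 2 (log2 fold change 0.42, adjusted p = 0.642).

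Axon guidance genes had 10 of 24 members higher and 7 lower (median 0.45). The balance changed with the set, to 12 higher and 5 lower (median 0.74) without RXRgKO-labelled replicates 1 and 2 and 5 higher and 7 lower (median 0.11) without replicates 3 and 4. The count of rises was 5 or 6 without any one of RXRgKO-labelled replicates 3 and 4 and WT-labelled replicates 2, 3 and 4. Unc5b, a netrin receptor, had 5.15, 5.26, 14.9 and 16.3 CPM in RXRgKO-labelled libraries, against 42.1, 67.6, 57.8 and 64.2 CPM in WT-labelled libraries, 5.49-fold lower (adjusted p = 8.8e-05). Sema3e was 3.54-fold and Sema4d, which oligodendrocytes express, 3.31-fold lower in RXRgKO-labelled libraries, while the slit receptor gene Robo1 was 2.19-fold higher. Glutamate and GABA receptors had 8 of 24 members higher and 4 lower (median 0.38, and 0.54 with 5 higher and 1 lower or 0.24 with 8 higher and 4 lower without RXRgKO-labelled replicates 1 and 2 or 3 and 4), and 1 lower without any one of RXRgKO-labelled replicates 1 and 2 and WT-labelled replicates 2, 3 and 4.

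Ion channels had 6 of 23 members higher and 3 lower in RXRgKO-labelled libraries (median 0.27). The median was 0.29 without replicates 1 and 2 of that label and 0.01 without replicates 3 and 4, with 4 higher and 3 lower, and 5 higher and 4 lower. Kcna1, a voltage-gated potassium channel, had 11.3, 10.7, 11.3 and 11 CPM in RXRgKO-labelled libraries, against 57.0, 42.1, 40.8 and 37.6 CPM in WT-labelled libraries, 4.01-fold lower (adjusted p = 7.2e-07). Hcn2, a pacemaker channel, was 3.52-fold lower, with 6.42, 7, 19 and 21.3 CPM in RXRgKO-labelled libraries. Intermediate filament genes had 3 of 10 members higher and 0 lower (median 0.61), and 1 higher without any one of RXRgKO-labelled replicates 3 and 4 and WT-labelled replicates 3 and 4. It had 5 higher (median 1.01) without RXRgKO-labelled replicates 1 and 2 and 1 higher (median 0.21) without replicates 3 and 4. Prph, the filament peripherin, had 24.5, 23.6, 36.1 and 40.1 CPM in RXRgKO-labelled libraries, against 9.86, 5.91, 5.25 and 6.43 CPM in WT-labelled libraries (4.52-fold higher, adjusted p = 6.5e-05).

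The same genotype labels were compared without T3, in libraries that enter no mean of the T3 comparison, though all 16 share 1 estimate of the spread. The labels do not say whether libraries with and without T3 came from the same cell preparations. WT-labelled replicate 1 stood apart from replicates 2 to 4 without T3 as well. Untreated RXRgKO-labelled libraries also formed sets, replicates 1 and 3 and replicates 2 and 4. A direction shared with and without T3 may thus not be an independent repeat. Without T3, 2240 of the 19764 genes (11.3%) were called, 1220 higher and 1020 lower in RXRgKO-labelled libraries. Of the genes called under T3, 1617 were also called untreated, which is 54.9% of the T3 calls and 72.2% of the untreated calls, and 1616 of them had the same direction. Among all T3 calls, 2813 (95.6%) had the same sign untreated. The share of like signs over all genes tested is not given here, so this count has no background beside it. The myelin list had 24 falls and 1 rise and a median of -1.60 untreated, beside -1.56 under T3. The microglia and mesenchymal lists had untreated medians of 2.48 and 2.78. The interneuron and neuron lists had 7 and 0 rises and medians of 0.88 and 0.21 untreated, beside 13 and 8 rises and medians of 1.76 and 0.71 under T3. The mitosis list had 3 falls and a median of -0.26 untreated, beside 13 falls and -0.64 under T3. In the test of the difference between treatments 0 members of the interneuron, neuron and mitosis lists were called, so these counts do not show that the treatments differ.

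A test of the difference between the genotype differences with and without T3 called 13 genes (0.0658%), 2 positive and 11 negative, and 1017 genes had an unadjusted p under 0.05. It took libraries with and without T3 as unpaired. Of the 13 genes, 10 were also called under T3. The count was 49 without WT-labelled T3 replicate 1, and 7, 7 and 5 without replicate 2, 3 or 4. It was 6, 10, 4 and 4 without RXRgKO-labelled T3 replicate 1, 2, 3 or 4. By DESeq2 it was 112, by limma voom 11, and with counts summed per set 0.

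Hsd17b7, described above, had a log2 fold change of -1.63 with T3 and -0.37 untreated (adjusted p of the difference 0.0143). A like pattern was found for Itih3, a hyaluronan-binding protein gene (-1.29 with T3 and -0.02 untreated), Prr5l, an mTOR complex regulator (-1.403 and -0.27), Slc20a2, a phosphate transporter (-1.49 and -0.42), and Arhgap28, a small GTPase regulator (-1.75 and 0.00), with adjusted p of the difference from 0.0182 to 0.0388. For these 5 genes the mean level of the RXRgKO-labelled libraries lay below that of the WT-labelled libraries with T3 and the labels did not overlap.

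Edil3, an integrin-binding matrix protein, was higher with T3 and not called without it, at 41.0, 41.5, 42.2 and 42.9 CPM in RXRgKO-labelled T3 libraries against 26.1, 21.9, 24.9 and 21.2 CPM in WT-labelled T3 libraries (log2 fold change 0.83 with T3 and -0.28 untreated, adjusted p of the difference 0.0060). Fam135b was lower in RXRgKO-labelled libraries in both treatments, by less with T3 (-0.95 with T3 and -2.81 untreated). Colec12, a scavenger receptor, was higher in both, by less with T3 (1.73 and 3.27). The matrix genes Thbs2 (-0.12 and 1.47) and Pcolce (0.61 and 2.65) and the protease gene Ctsc (-0.16 and 1.08) were called untreated and not with T3, although Pcolce was called with T3 without WT-labelled replicate 1 (0.78). Gm44846, of the class TEC (transcripts still to be tested by experiment), was the gene called in opposite directions, at -0.64 with T3 (adjusted p = 0.0432, up to 0.127 with any single library left out) and 1.19 untreated.

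**Figure D5:**
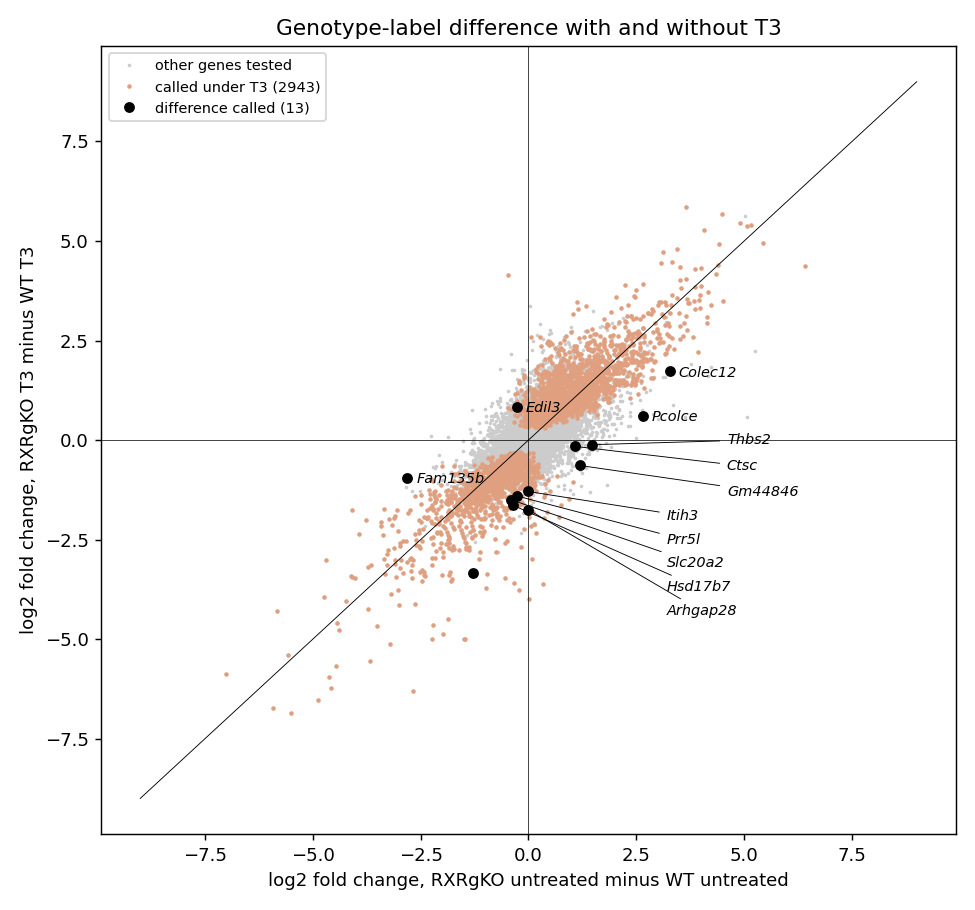
Log2 fold change between RXRgKO-labelled and WT-labelled libraries with T3 (y axis) against that without T3 (x axis) for all genes tested, genes called under T3 in orange and the 13 genes of the called difference in black, with the line of equality. Most T3 calls lie near the line, Hsd17b7 and Arhgap28 lie below it, and Edil3 above it.

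Around Rxrg, 10 of the 100 nearest tested genes were higher and 5 lower in RXRgKO-labelled libraries, a share of 15% beside the background of 14.9% over all genes (median 0.06). They span chromosome 1 from 162874317 to 171504750. The called ones included Ddr2, Hsd17b7 and Adamts4, given above, the ciliary gene Cfap126 (5.23-fold higher), the junction protein gene F11r (4.84-fold higher) and the Fc receptor chain Fcer1g (7.25-fold higher, and not called without RXRgKO-labelled replicates 1 and 2, at an adjusted p of 0.0692). These had the lowest p and all lay far from Rxrg, 2351 to 3839 kb between gene starts. The called gene nearest to Rxrg was Lmx1a, at 90.85 kb (log2 fold change 0.885, SE 0.21, adjusted p = 0.00803). It was named after its values were seen.

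By annotation class, 1490 of the 15316 protein-coding genes tested were higher and 972 lower in RXRgKO-labelled libraries. Of 1461 transcripts of the class TEC, 8 were higher and 193 lower, and of 167 sense-intronic transcripts 1 was higher and 20 lower. Reads outside genes made up 16.8%, 18.7%, 12.5% and 11.5% of the RXRgKO-labelled libraries 1 to 4 and 12.5% to 14.7% of the WT-labelled libraries, and their part in these falls was not tested.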

How the data were processed

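RNA of 16 libraries was sequenced, and the deposited files give raw counts per gene for each library, made by the authors. The submitters' processing notes name the build mm10 and the tools HTSeq 0.6.1p1, STAR 2.5.3a and bcl2fastq 2.17.1.14. Which annotation the authors used, and the strand setting, is not given in the sources used here. Genes that overlap, or that share reads with a copy, cannot be told apart by such counts. Without molecular identifiers, reads are not independent molecules. The 5 summary lines of each file stayed out of library sizes. Names and positions came from GENCODE M21 (GRCm38), which matched 55154 of 55335 genes, and promoter windows from RefSeq.

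edgeR 4.0.16 (R 4.3.3) fitted 1 mean per group to all 16 libraries, with TMM factors, filterByExpr and robust quasi-likelihood dispersions, leaving 19764 genes. Calls have a Benjamini-Hochberg adjusted p under 0.05 over all genes tested, and every adjusted p of a gene is from this fit unless another is named. Standard errors are the log2 fold change divided by the root of F. Library sets join libraries with a chi-square per gene under 3, over genes with 20 to 500 counts summed over a pair. Differences of library measures used the exact permutation test. Alternatives used DESeq2 1.42.0 and limma 3.58.1, other filters and scalings, a replicate block, a covariate, summed sets, and libraries left out. The fit was tested on simulated data.

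Groups came from the titles. The genes named are a part of those given by a rule: Rxrg, the 15 largest rises and falls and the 10 smallest adjusted p in each direction with no overlap and at least 2 CPM, up to 5 called and 2 uncalled members of each of 34 lists, the 2 highest members of other cell type lists, genes near Rxrg, genes of the difference, and sex-linked genes. Members, lists and library sets were chosen with earlier results of these data known. Mog, Opalin, Olig2, Cspg4, Sox10 and Lmx1a were added after their values were seen. Some genes that the rule gives are not reported here.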

Additional observations from a re-analysis of the deposited data

Results flagged for a closer look

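Among groups of 4 libraries, 50 of 370 had a highest or lowest library whose gap to its neighbour, as a share of the group's range, passed the Dixon limit for 4 values, and chance alone flags about 1 in 20 groups. Genes and lists share libraries, so these flags are not independent. The measure flags only a library that stands alone. A gap between RXRgKO-labelled T3 replicates 1 and 2 and replicates 3 and 4 passes unflagged, so few flags there do not show less spread. Most flags came from 1 library, WT-labelled T3 replicate 1, which stood apart from its group as a set and was the highest in 29 and the lowest in 15 of them.

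This library was the highest of the WT-labelled T3 libraries, with the share in brackets, for Abcg1 (0.885), Bcan (0.918), Bcas1 (0.937), Enpp6 (0.994), Fos (0.985), Foxj1 (0.865), Fyn (0.932), Gfap (0.957), Id2 (0.843), Id4 (0.975), Mog (0.925), Olig2 (0.848), Opalin (0.881), Plk1 (0.925), Pltp (0.894) and Sox10 (0.873). It was the lowest for Adamts4 (0.852), Dio3 (0.913), Ebp (0.843), Ermn (0.833), Hapln2 (0.851), Hsd17b7 (0.923), Mbp (0.924), Mobp (0.953), Rarb (0.854), S1pr5 (0.882) and Tmem125 (0.831). By summed level it was the highest for the lists of OPC marker (0.853), Notch pathway and Id (0.904), T3 target in brain (0.918), T3 receptor/deiodinase and transporter (0.906), RXR and partner receptor (0.965), LXR target (0.964), DNA replication and mitosis (0.954), matrix and perineuronal net (0.943), Wnt pathway (0.973), intermediate filament (0.946), astrocyte (0.908) and Schwann cell and neural crest (0.931), and the lowest for the lists of myelin and mature oligodendrocyte (0.865) and GABAergic interneuron (0.956). It also had the highest percentage of reads in genes (0.831), the lowest percentage of reads mapped to several sites (0.864) and the lowest normalisation factor (0.850).

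The other flags were RXRgKO-labelled T3 replicate 2, low for Hes1 (0.870) and Rarb (0.892) and high for Tmem125 (0.884), RXRgKO-labelled T3 replicate 4, low for Meg3 (0.888), and WT-labelled T3 replicate 4, high for Crym (0.837) and Pifo (0.837).

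The genotype difference (RXRgKO-labelled minus WT-labelled, log2) with T3 minus that without T3 was tested by edgeR's interaction contrast. It was lower with T3 for Pcolce (-2.04), Gm44846 (-1.83), Arhgap28 (-1.75), Thbs2 (-1.59), Colec12 (-1.54), Itih3 (-1.27), Hsd17b7 (-1.26), Ctsc (-1.24), Prr5l (-1.13) and Slc20a2 (-1.08). It was higher with T3 for Fam135b (1.86) and Edil3 (1.11).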

How the results depend on the processing

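The count of 2943 genes called under T3 stayed within 1.5 times under DESeq2 (3686), limma voom (2735), DESeq2 size factors (3020), no low-count filter (2293), a filter of 1 CPM (2948), non-robust dispersions (2971), a fit of the 8 libraries alone (2318), a covariate for reads that fell outside genes (4175), and each single library left out (2178 to 3195). It was 110 with counts summed per library set, a fit with fewer values, where the untreated comparison called 141 genes. The log2 fold change of Rxrg kept its direction and its call in every alternative run, at 2.58 to 2.95 with a library left out. The 13 genes of the difference between treatments became 112 by DESeq2, 20 with a filter of 1 CPM, 81 with the covariate, 92 without RXRgKO-labelled T3 replicates 1 and 2, 49 without replicates 3 and 4, 0 with summed sets, and 4 to 49 with a library left out, and the cause was not tested. A fit of the 8 libraries alone was not run for it because it needs all 4 groups. With summed sets 79 of the 140 named genes beside Rxrg and Lmx1a lost their call, and genes uncalled before had none to lose. Only 56 kept their direction and stayed called or uncalled as before. Among the 79 were Acta2 (adjusted p = 0.110), Dlx1 (0.110), Gad2 (0.113), Cdk6 (0.0544), Hsd17b7 (0.0802) and Nfasc (0.146), with log2 fold changes of 3.13, 1.98, 2.60, 1.86, -1.52 and -2.04. Mog (0.242), Mki67 (0.241), Foxj1 (0.210), Kdr (0.223), Robo1 (0.333) and Hes1 (0.387) were also among them. By limma voom, Lyz2 (adjusted p = 0.300), Hapln1 (0.188), Fcer1g (0.0776), Shh (0.0745), Bst2 (0.0553) and Trh (0.0524) lost theirs. The replicate block lost 15, and no low-count filter 5. B2m reversed to -0.58 without RXRgKO-labelled replicates 1 and 2, and Xist to -7.89 without replicates 3 and 4. Calls that appeared only without replicates 3 and 4 included Bcan (-1.08) and Slc1a3 (0.71), and without replicates 1 and 2 Dcx (1.06).

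With the replicate number as a block, 1381 genes were called under T3, and 4 genes for the difference. Deviations of same-numbered libraries correlated at -0.391, 0.291, -0.271 and -0.246 for numbers 1 to 4 and none matched its own number best. The number thus gave no sign of pairs among the libraries correlated here. WT-labelled replicate 1 stood apart from its group both with and without T3. Whether same-numbered libraries with and without T3 shared a source was not tested.

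Low levels rest on few counts, such as 25 for Casr in the RXRgKO-labelled T3 libraries, and the sets leave few independent values in each group.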
